A study of Mus musculus with 14 samples.

Results

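The release of transmitter at a fast synapse runs on a small set of proteins, and 9 genes that encode them were followed here through the ribosome-bound RNA of hippocampal parvalbumin (PV) neurons: the calcium sensors Syt1, Syt2 and Syt7, the complexins Cplx1 and Cplx2, the vesicle SNAREs Vamp1 and Vamp2, and the plasma membrane SNAREs Snap25 and Stx1a. They were taken by name from the 39017 gene identifiers of the count table, and all 9 were among the 21298 genes with enough counts to be tested. Male C57BL/6 mice that carried PV-Cre and a Cre-dependent EGFP-L10a allele, 8 to 12 weeks old when experiments began, either went through chronic social defeat stress (CSDS) by CD1 aggressors for 10 days or stayed in pairs as non-defeated mice. Defeated mice with a social interaction ratio below 1 were called susceptible and the others resilient. Both hippocampi of a single mouse made a TRAP (translating ribosome affinity purification) sample, in which ribosomes are pulled down through the EGFP on their L10a subunit, and there were 4 non-defeated, 4 resilient and 3 susceptible TRAP libraries. Another 3 libraries, called input, hold hippocampal RNA of non-defeated mice from before the pull-down. Their sample labels say translating RNA, as those of the TRAP samples do, while the series' design text speaks of total RNA, and the values against input are read here as against total RNA. All groups carried both alleles, and the tag marks every cell in which PV-Cre has been active, in the hippocampus or in tissue dissected with it.

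An action potential opens calcium channels at the active zone, calcium binds a synaptotagmin on the docked vesicle, and the SNARE complex of synaptobrevin (Vamp), syntaxin and SNAP-25 pulls the membranes together. Complexins hold the assembled complex ready and help the synaptotagmin to trigger it. PV basket cells are known for very brief and tightly timed GABA release, for which they use Syt2, whereas Syt1 is the main fast sensor of most forebrain excitatory neurons and Syt7 is a slower sensor with high affinity for calcium.

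Levels of the paralogs of each pair are set beside each other here, so the sequences were compared first. A read of 150 bases has to be told apart between them. The longest annotated coding sequence of each gene in GENCODE release 21 was taken. Identity was 76.0% between Syt2 and Syt1 (941 of 1238 aligned bases), 70.2% between Vamp1 and Vamp2 (340 of 484) and 79.8% between Cplx1 and Cplx2 (323 of 405). The longest run of identical bases was 26, 18 and 32 bases in the 3 pairs, so a read of 150 coding bases that matches both paralogs exactly at aligned positions does not exist. The most alike gap-free stretch of 150 bases in each pair is shown here, with the bases that differ in capitals: there were 21 for Syt2 and Syt1, 21 for Vamp1 and Vamp2, and 23 for Cplx1 and Cplx2.
Syt2, coding bases 883 to 1032: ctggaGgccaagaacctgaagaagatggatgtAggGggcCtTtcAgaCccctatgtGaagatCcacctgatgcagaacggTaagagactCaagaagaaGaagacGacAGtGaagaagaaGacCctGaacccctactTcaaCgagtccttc
Syt1, coding bases 880 to 1029: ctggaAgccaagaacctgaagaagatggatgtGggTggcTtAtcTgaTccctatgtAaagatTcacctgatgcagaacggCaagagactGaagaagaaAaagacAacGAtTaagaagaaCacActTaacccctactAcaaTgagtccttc
Vamp1, coding bases 64 to 213: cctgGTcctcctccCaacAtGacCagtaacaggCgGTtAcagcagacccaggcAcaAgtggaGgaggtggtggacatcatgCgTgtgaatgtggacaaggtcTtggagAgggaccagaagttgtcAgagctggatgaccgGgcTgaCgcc
Vamp2, coding bases 58 to 207: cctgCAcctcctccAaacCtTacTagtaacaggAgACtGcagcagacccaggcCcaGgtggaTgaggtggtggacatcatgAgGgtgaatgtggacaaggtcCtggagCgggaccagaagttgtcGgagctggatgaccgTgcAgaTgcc
Cplx1, coding bases 1 to 150: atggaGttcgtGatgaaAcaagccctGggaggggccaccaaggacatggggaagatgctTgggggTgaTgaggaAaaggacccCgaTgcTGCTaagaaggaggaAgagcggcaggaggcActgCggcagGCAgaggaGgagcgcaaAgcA
Cplx2, coding bases 1 to 150: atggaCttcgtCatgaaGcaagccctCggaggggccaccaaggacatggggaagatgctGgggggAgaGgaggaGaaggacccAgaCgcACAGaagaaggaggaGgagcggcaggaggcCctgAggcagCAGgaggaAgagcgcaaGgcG

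The 9 genes lie on 8 chromosomes of GRCm38 (mm10), with only Cplx1 and Stx1a on the same chromosome, and counts cover their whole exons. Syt1 spans chr10:108497650-109010982, Syt2 chr1:134646677-134762593, Syt7 chr19:10389090-10453180, Cplx1 chr5:108518554-108550024, Cplx2 chr13:54371349-54383917, Vamp1 chr6:125215551-125245964, Vamp2 chr11:69088490-69092384, Snap25 chr2:136713453-136782428 and Stx1a chr5:135023482-135051100. Of the 9 genes, 1 shares exonic bases with another annotated gene: Syt7 overlaps the lincRNA Gm26859 on the opposite strand over 384 bases, 5.13% of its exonic length, and the library kit does not mark strand.

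The libraries held between 64110214 and 94726962 counts. In TRAP of non-defeated mice all 10 PV interneuron markers rose against input (Pvalb by 5.85 on the log2 scale). All 8 markers of hippocampal excitatory neurons fell, with a median log2 fold change of -1.68. They still summed to between 627 and 857 CPM (counts scaled to library size) against 1790 to 2118 in input. Of 8 markers of other interneurons 2 rose and 5 fell. Their sum was 428 to 628 CPM in TRAP and 345.5 to 374.4 CPM in input. Of 5 endothelial markers 2 rose and 0 fell, and of 10 thalamic markers 2 rose and 0 fell. Over all genes tested 27.4% rose and 27.6% fell. Markers of thalamic neurons set 5 libraries apart: their sum was 487 in input 14, 589 and 461 in non-defeated 9 and 11, 999 in resilient 7 and 307 in susceptible 10, and between 124 and 201 in the other 9. Libraries are named by their group and the number in their label.

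The question of this comparison was which release genes the ribosomes of PV neurons read more than the hippocampus as a whole. Syt2, Vamp1 and Cplx1 were 11.2-, 6.19- and 4.30-fold higher in TRAP of non-defeated mice, Vamp2, Syt1, Syt7 and Snap25 were 1.25- to 1.40-fold higher, and Cplx2 and Stx1a were 3.07- and 2.69-fold lower (ratios of mean levels, n = 4 against 3). All 9 members passed the test at an adjusted p under 0.05, 7 higher and 2 lower, and their median log2 fold change was 0.44. Of all genes tested 55.0% passed in this comparison (27.4% higher and 27.6% lower), with a median of -0.04. The TRAP and input libraries did not overlap for any of the 9, nor for 62.0% of all genes. Between TRAP and input, in bulk RNA, fewer cells of a type and less RNA per cell cannot be told apart. Levels are given throughout as CPM after TMM normalization, a scaling that sets the typical gene equal between libraries, and adjusted p-values come from edgeR's quasi-likelihood test with Benjamini-Hochberg adjustment over all genes tested.

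**Figure D1:**
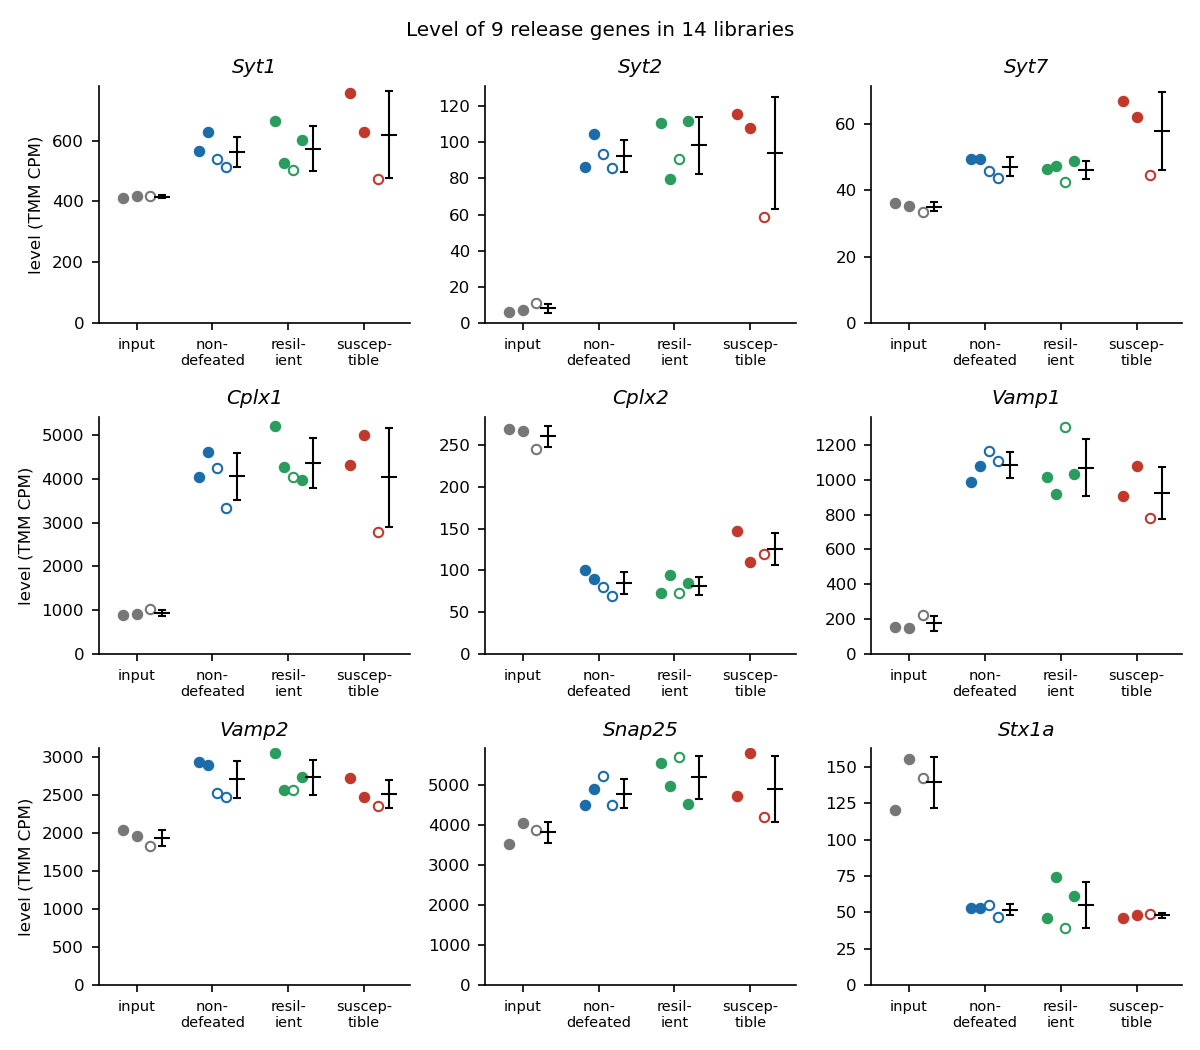
Level of each of the 9 genes in each of the 14 libraries (vertical axes, TMM CPM, from 0; horizontal axes, the 4 groups). Each circle is 1 library, open where summed thalamic markers exceeded 250 CPM, and the black dash and bar are the group mean ± SD. Syt2, Vamp1 and Cplx1 of all TRAP libraries lie far above input, Cplx2 and Stx1a lie below it, and Cplx2 of the 3 susceptible libraries lies above every other TRAP library.

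Among the calcium sensors, the level of Syt2 was 6.32, 7.39 and 11.1 CPM in input 12, 13 and 14, and 86.1, 105, 93.6 and 85.7 CPM in non-defeated 1, 6, 9 and 11. The groups were far apart, and the highest input library was the one with thalamic markers. The log2 fold change was 3.48 ± 0.25 (SE, adjusted p = 7.07e-08). Syt1 stood at 410, 419 and 418 CPM in input and at 567, 627, 540 and 513 CPM in the 4 non-defeated libraries. These groups did not overlap either, but the difference was small, with a log2 fold change of 0.43 ± 0.14 (SE, adjusted p = 0.0139). Syt7 went from 36.2, 35.2 and 33.6 CPM in input to 49.5, 49.4, 45.7 and 43.7 CPM, a log2 fold change of 0.43 ± 0.12 (SE, adjusted p = 0.0065). Of the 3 synaptotagmins, Syt2 was the one whose TRAP level was many times that of input.

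The complexins moved in opposite directions. Cplx1 was at 894, 913 and 1025 CPM in input and at 4038, 4613, 4257 and 3333 CPM in non-defeated 1, 6, 9 and 11, a log2 fold change of 2.10 ± 0.17 (SE, adjusted p = 2.40e-07). Cplx2, its close relative, was at 269, 267 and 246 CPM in input and at 101, 89.9, 79.7 and 69.2 CPM in the same 4 libraries, a log2 fold change of -1.62 ± 0.13 (SE, adjusted p = 2.51e-07). Every TRAP library was thus above input for Cplx1 and below it for Cplx2. The value for Cplx2 lay beside the median of -1.68 for the 8 excitatory markers. The part of RNA from other cells in the level that remained in TRAP was not tested.

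Of the vesicle SNAREs, Vamp1 was at 153, 148 and 225 CPM in input and at 986, 1080, 1163 and 1109 CPM in the non-defeated libraries (log2 fold change 2.63 ± 0.17, SE, adjusted p = 2.33e-08). Vamp2, the most widely used synaptobrevin of the forebrain, was at 2039, 1961 and 1828 CPM in input and at 2937, 2901, 2534 and 2473 CPM in TRAP (0.48 ± 0.09, SE, adjusted p = 3.12e-04). Both groups stayed apart for both genes. Vamp1 in input was highest in the library with thalamic markers, as Syt2 was.

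The 2 plasma membrane SNAREs also parted. Snap25 was at 3533, 4056 and 3863 CPM in input and at 4485, 4901, 5226 and 4489 CPM in TRAP, a log2 fold change of 0.32 ± 0.11 (SE, adjusted p = 0.0216). This was the smallest of the 9 differences, and it no longer passed without non-defeated 9 (adjusted p = 0.0565) or without input 12 (adjusted p = 0.0939). Stx1a was at 121, 156 and 142 CPM in input against 52.6, 53.2, 54.9 and 46.7 CPM, a log2 fold change of -1.43 ± 0.17 (SE, adjusted p = 6.12e-06).

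**Figure D2:**
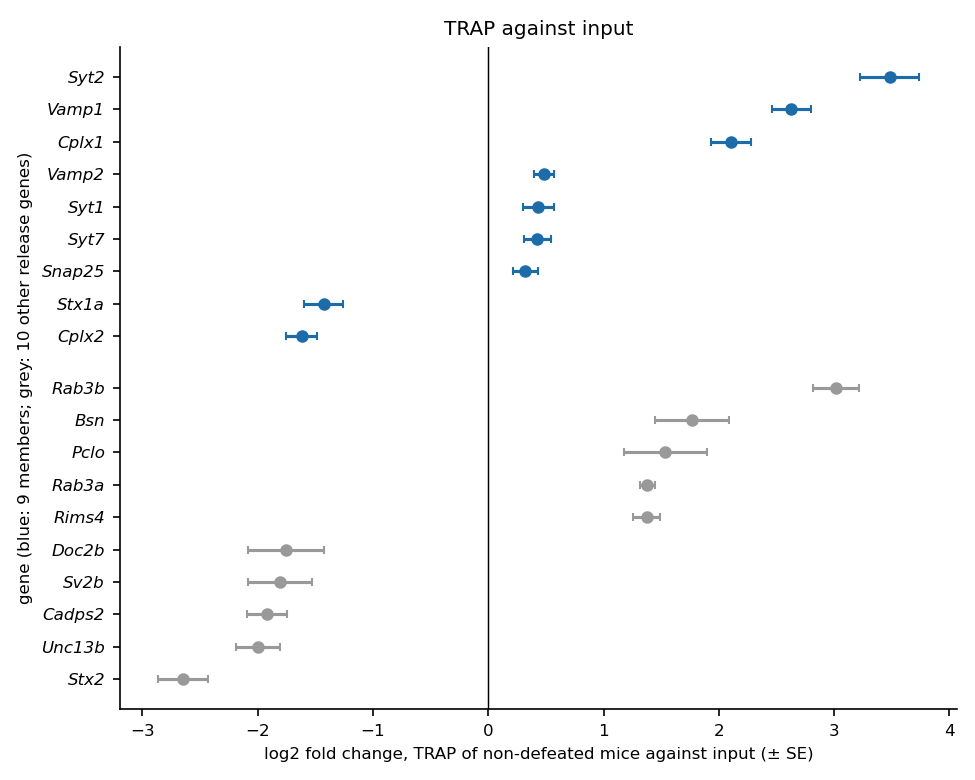
log2 fold change of TRAP of non-defeated mice against input (horizontal axis) for the 9 members (blue) and 10 other release genes (grey), 1 gene a row, with bars of ± SE. Syt2 at 3.48, Vamp1 at 2.63 and Cplx1 at 2.10 lie apart from the other 4 members above 0, which lie between 0.32 and 0.48, and Stx1a and Cplx2 lie below -1.

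The levels of the genes relative to each other were taken per kb of exon (RPKM from TMM CPM and the union of exons). In TRAP of non-defeated mice Cplx1 came first at 1855 ± 246 RPKM, before Vamp2 at 712 ± 63.5 and Snap25 at 703 ± 52.8, which overlapped (SD, n = 4). Vamp1 followed at 107 ± 7.26 RPKM and Syt1 at 67.4 ± 5.85. The last 4 were Stx1a at 19.5 ± 1.34 RPKM, Cplx2 at 17.2 ± 2.76, Syt2 at 12.1 ± 1.16 and Syt7 at 6.29 ± 0.38, of which Stx1a and Cplx2 overlapped. This order depends on the length used: per kb of the longest protein-coding transcript, Snap25 came first at 2257 ± 169 RPKM, since the union of its exons is 6791 bases against 2116 in that transcript.

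The share of each pair held by one paralog was compared within libraries, where no scaling between libraries enters. Syt2 made up 2.12 ± 0.62% of Syt1 plus Syt2 per kb in input and 15.2 ± 0.71% in TRAP of non-defeated mice (SD, n = 3 and 4). Vamp1 made up 3.30 ± 0.97% of Vamp1 plus Vamp2 in input and 13.1 ± 1.69% in TRAP. Cplx1 made up 89.0 ± 1.17% of Cplx1 plus Cplx2 in input and 99.1 ± 0.12% in TRAP. In each pair the TRAP libraries thus shifted toward the paralog named first, while Syt1 and Vamp2 still held the larger share of their pairs. The log2 ratio differed between TRAP and input by 3.09 for Syt2/Syt1, an 8.50-fold shift, by 2.18 for Vamp1/Vamp2, a 4.52-fold shift, and by 3.73 for Cplx1/Cplx2, a 13.2-fold shift. Groups did not overlap in any of the 3, and each exact 2-sided permutation p was 0.0286, the smallest that 4 against 3 libraries allow (adjusted p = 0.114 over 12 ratio tests).

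**Figure D3:**
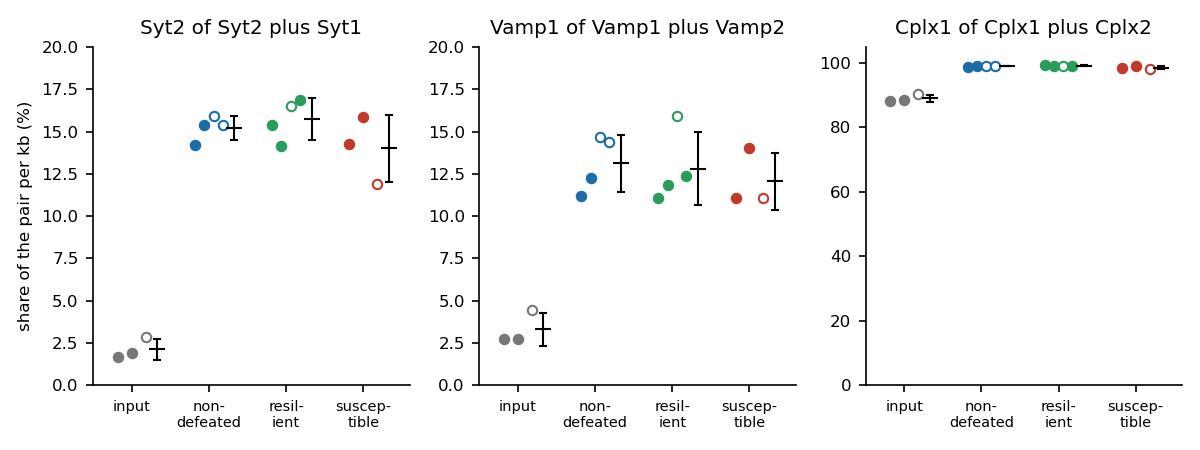
Share of each paralog pair, per kb of exon, held by Syt2, Vamp1 or Cplx1 (vertical axes, percent, from 0), in each library of the 4 groups. Circles are libraries, open where summed thalamic markers exceeded 250 CPM, with the mean ± SD in black. Every TRAP library is above every input library in all 3 pairs, and the 3 TRAP groups overlap in each pair, for Cplx1 through susceptible 4.

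The shares also depend on the length. With the longest protein-coding transcript in place of the union of exons, Vamp1 made up 6.24 ± 1.77% of its pair in input and 22.8 ± 2.62% in TRAP of non-defeated mice, and Syt2 1.37 ± 0.40% and 10.3 ± 0.51% (SD, n = 3 and 4). The difference between TRAP and input on the log2 scale is not touched by the length, which is the same in all libraries.

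Bases 250 to 51 before a RefSeq start (GRCm38.p6) are shown for Syt2, Vamp1 and Cplx1, because these 3 members had the largest rises of the 9 in TRAP, with GC boxes (GGGCGG on either strand) in capitals where there are any.
Syt2, chr1:134646362-134646561, plus strand: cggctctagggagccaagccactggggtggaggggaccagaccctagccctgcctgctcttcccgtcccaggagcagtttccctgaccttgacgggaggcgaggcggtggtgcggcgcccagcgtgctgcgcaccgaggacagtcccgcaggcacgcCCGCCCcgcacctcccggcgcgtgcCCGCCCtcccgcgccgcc
Vamp1, chr6:125215331-125215530, plus strand: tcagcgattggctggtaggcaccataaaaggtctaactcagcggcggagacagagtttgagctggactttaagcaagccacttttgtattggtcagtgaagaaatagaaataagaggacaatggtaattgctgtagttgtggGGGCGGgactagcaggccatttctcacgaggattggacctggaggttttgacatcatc
Cplx1, chr5:108550078-108550277, minus strand: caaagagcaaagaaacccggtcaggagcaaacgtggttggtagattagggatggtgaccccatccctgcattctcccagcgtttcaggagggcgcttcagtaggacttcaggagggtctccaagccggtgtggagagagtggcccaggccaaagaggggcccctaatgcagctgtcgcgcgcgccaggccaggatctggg
Syt2 held 2 GC boxes and Vamp1 held 1, while Cplx1 held none in this stretch. Syt2 has a second RefSeq start, whose stretch at chr1:134709050-134709249 is not printed and held 1 GC box and 1 E-box at a GC content of 67.0%. Of 32851 such stretches of 200 bases, 24.6% held at least 1 GC box. GC content was 75.0% for the stretch shown of Syt2, 60.5% for Cplx1 and 47.5% for Vamp1, with a median of 51.5% over all stretches. TATAAA was in none of the 3 stretches shown and in 9.14% of all stretches, and the E-box CANNTG was, of these 3, in Cplx1 only and in 59.0% of all, both strands searched. No overlap with another motif was removed.

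Other genes of the release machinery numbered 69, of which 67 were tested. In TRAP against input 14 of them rose and 30 fell, with a median log2 fold change of -0.25, beside 27.4% and 27.6% of all genes. Of 14 vesicle proteins 6 rose and 4 fell, and of 16 active zone and priming genes 4 rose and 5 fell. Of 12 other calcium sensors and synaptotagmins 1 rose and 5 fell. Of 9 other SNAREs 1 rose and 8 fell, of 10 SNARE chaperones and regulators 1 rose and 6 fell, and of 5 endocytosis genes 1 rose and 2 fell. The SNAREs that fell were Stx2, Stx3, Stx4a, Vamp3, Vamp4, Vamp8, Snap23 and Snap29, most of which are known from membrane traffic outside the synaptic vesicle cycle.

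The largest rises among these genes were in vesicle GTPases and scaffolds. Rab3b, a GTPase of synaptic vesicles, was at 110 ± 5.29 CPM in input and 892 ± 182 CPM in TRAP (SD, n = 3 and 4), a log2 fold change of 3.02 ± 0.20 (SE, adjusted p = 3.00e-08), between those of Syt2 and Vamp1. Rab3a rose by 1.38 and Rims4, a short member of the RIM family, by 1.37 on the log2 scale. The active zone scaffolds Bsn and Pclo rose by 1.77 and 1.54. Their genes have very long transcripts. Resilient 3 stood at 39.8 CPM for Bsn and 36.6 CPM for Pclo, while input was at 32.5 to 37.1 and 42.7 to 48.5 CPM. The part of transcript length in these levels of resilient 3 was not tested.

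The largest falls were in Stx2 (log2 fold change -2.65), in the priming factors Unc13b (-1.997) and Cadps2 (-1.92), in the vesicle protein Sv2b (-1.81) and in the calcium sensor Doc2b (-1.76), all at an adjusted p of 4.20e-04 or less. Several have a paralog that did not fall: Unc13a, the main Munc13 of forebrain synapses, had a log2 fold change of -0.11 (adjusted p = 0.67), Cadps rose by 0.55 (adjusted p = 2.38e-04) and Sv2a rose by 1.20 (adjusted p = 1.95e-07). These paralogs were picked after their values were seen.

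Across the 11 TRAP libraries, the genes whose log2 level was most like that of Syt2, among 9914 genes with a mean of at least 10 CPM, were B4galnt4, Amn and Cdk10 (Pearson r of 0.95, 0.94 and 0.94). For Vamp1 they were Zmat4, Rimkla and Rassf3 (0.95, 0.94 and 0.93), and for Cplx1 they were 1500004A13Rik and Mrpl49 (0.97 each). Of these 3 members, none had another member among its 3 nearest genes. These values describe 11 points that share libraries, scaling and any RNA of other cells.

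The other comparisons asked whether the RNA of these genes on PV ribosomes differed after CSDS. Syt1, Syt2, Cplx1, Vamp1, Vamp2, Snap25 and Stx1a did not pass the test in any of the 3 comparisons between TRAP groups, and Cplx2 alone did, in susceptible against resilient mice, where it was 1.55-fold higher. The 3 comparisons share libraries and are not independent.

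In resilient against non-defeated mice 0 of 9 members passed, as did 0% of all genes in edgeR's quasi-likelihood test and 0 in DESeq2. At an unadjusted p under 0.05, 0 members and 4.38% of all genes lay in edgeR's test. Log2 fold changes of the members ran from -0.06 for Cplx2 to 0.12 for Snap25, with standard errors between 0.08 and 0.20. The means of Syt1, for example, were 562 ± 48.7 CPM in non-defeated and 574 ± 73.9 CPM in resilient mice (SD, n = 4 and 4), and the groups overlapped for all 9 genes, whereas they did not for 2.35% of all genes.

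In susceptible against non-defeated mice, again 0 of 9 members passed, against 0.0376% of all genes. Cplx2 was at 147, 110 and 120 CPM in susceptible 2, 4 and 10 and at 69.2 to 101 CPM in the 4 non-defeated libraries. The susceptible libraries were all higher, which held for 4.21% of all genes, and the log2 fold change was 0.56 ± 0.13 (SE, unadjusted p = 8.50e-04, adjusted p = 0.145). edgeR's likelihood ratio test, which is less strict, gave an adjusted p of 0.0201 for the same difference. Syt7 was next, with a log2 fold change of 0.30 ± 0.12 (SE, adjusted p = 0.309). These were the 2 members at an unadjusted p under 0.05, where 13.3% of all genes lay.

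In susceptible against resilient mice 1 of 9 members passed, Cplx2, against 1.89% of all genes tested (1.02% higher). That share rested on single libraries, and ran from 0.0282% without resilient 8 to 4.88% without susceptible 10. At an unadjusted p under 0.05 there were 2 members, Cplx2 and Syt7, and 20.9% of all genes. The Cplx2 level was 72.6, 94.8, 72.7 and 85.0 CPM in resilient 3, 5, 7 and 8 and 147, 110 and 120 CPM in susceptible 2, 4 and 10. Every susceptible library was above every resilient one, as was the case for 7.71% of all genes. The log2 fold change was 0.63 ± 0.13 (SE, adjusted p = 0.0395). The exact 2-sided permutation p for Cplx2 was 0.0286 here, the smallest possible, and 0.0571 in susceptible against non-defeated mice. These 2 p-values were not adjusted over members or comparisons, and they come from the same libraries as the call. The susceptible level remained below the 246 to 269 CPM of input.

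The call for Cplx2 stood close to its threshold. It held in 7 of 16 alternatives, in all of which the difference was positive, between 0.50 and 0.72 on the log2 scale. Leaving out resilient 3, 7 or 8 or susceptible 2 or 4 ended it (adjusted p = 0.0586, 0.112, 0.095, 0.162 and 0.0542), as did leaving out the libraries with thalamic markers (adjusted p = 0.0503), a fit of the 2 groups alone (0.136), of the 11 TRAP libraries (0.103) or with sample number as a covariate (0.0513).

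Other cell markers were set beside it. No excitatory marker of 8 passed in this comparison, and their sum was 677, 585 and 969 CPM in susceptible 2, 4 and 10 and between 478 and 1022 CPM in resilient libraries, so the groups overlapped. The hemoglobin genes Hba-a1, Hba-a2, Hbb-bs and Hbb-bt all passed (4 of 4 higher): their sum was between 885 and 1218 CPM in susceptible, 127 and 588 CPM in resilient and 774 and 981 CPM in input libraries. Of 8 markers of other interneurons 0 passed, with sums of 862, 876 and 501 CPM in susceptible 2, 4 and 10 and between 435 and 788 CPM in resilient libraries. The part of these cells in the difference of Cplx2 was not tested.

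**Figure D4:**
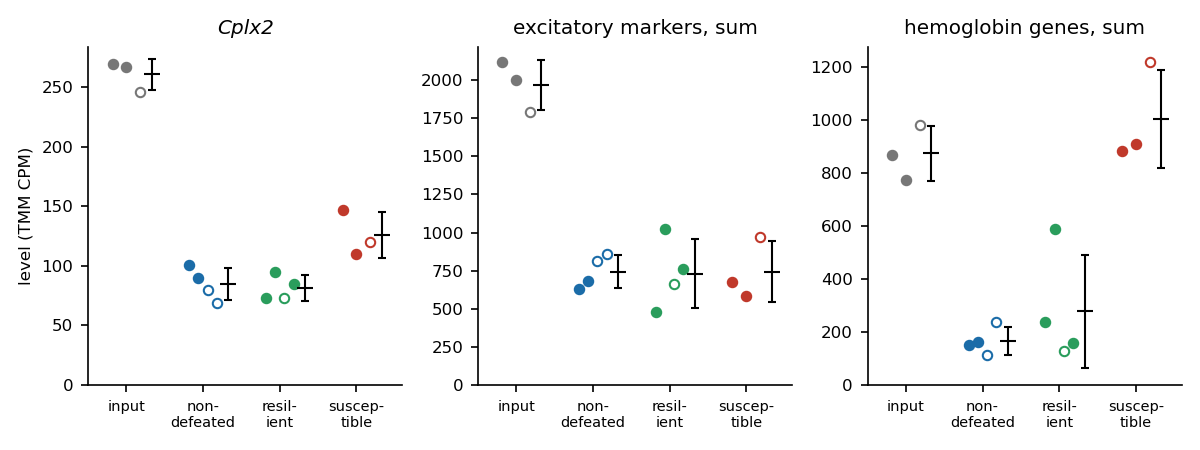
Level of Cplx2 and the summed level of 8 excitatory neuron markers and of 4 hemoglobin genes (vertical axes, TMM CPM, from 0) in each library of the 4 groups. Circles are libraries, open where summed thalamic markers exceeded 250 CPM, and the black dash and bar are the mean ± SD. Susceptible libraries do not overlap with the other TRAP libraries for Cplx2 and the hemoglobin genes and do overlap for the excitatory markers.

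Syt7 followed Cplx2 in size. It was at 66.8, 62.1 and 44.5 CPM in susceptible 2, 4 and 10 and between 42.4 and 48.8 CPM in resilient libraries, so that 2 of 3 susceptible libraries were above and 1 was within them. The log2 fold change of 0.33 ± 0.12 did not pass (SE, adjusted p = 0.133). Without susceptible 10 it was 0.48 (adjusted p = 0.0222), and without all libraries with thalamic markers 0.45 (adjusted p = 0.0344).

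The remaining members varied within groups as much as between them. Susceptible 10, which also had the lowest sum of PV markers (3589 CPM, against 4151 to 5070 in the other TRAP libraries), was the lowest of the 11 TRAP libraries in Cplx1 (2791 CPM), Syt2 (58.7 CPM), Syt1 (474 CPM), Vamp1 (781 CPM), Vamp2 (2355 CPM) and Snap25 (4185 CPM). Cplx1 in the other susceptible libraries was 4319 and 4991 CPM, within the 3980 to 5197 CPM of resilient mice. Vamp1 was highest in resilient 7 (1302 CPM), the TRAP library with the most thalamic marker RNA, and next in non-defeated 9 and 11. In susceptible against resilient mice its log2 fold change was -0.21 ± 0.15 (SE, adjusted p = 0.463).

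**Figure D5:**
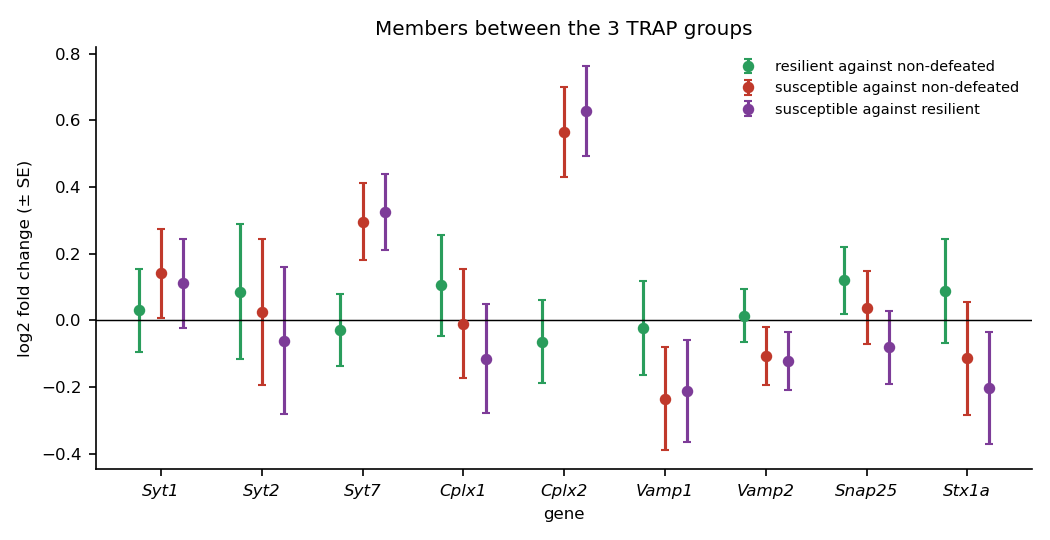
log2 fold change (vertical axis, ± SE) of the 9 members in resilient against non-defeated, susceptible against non-defeated and susceptible against resilient mice. Cplx2 is farthest from 0, at 0.56 and 0.63 in the 2 comparisons with susceptible mice, and Syt7 is next at 0.30 and 0.33, while the other members lie between -0.23 and 0.14.

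Ordered by mean level, input was lowest and its libraries overlapped with no neighbouring group for Syt1, Syt2, Syt7, Cplx1, Vamp1, Vamp2 and Snap25, and it was highest for Cplx2 and Stx1a. Among the TRAP groups, neighbours in the order overlapped in all genes except Cplx2, where resilient (81.3 ± 10.8 CPM) and non-defeated mice (84.9 ± 13.6 CPM) overlapped and susceptible mice (126 ± 19.1 CPM) stood between them and input (260 ± 12.8 CPM; SD, n = 4, 4, 3 and 3).

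Paralog shares differed little between TRAP groups. Syt2 made up 15.2 ± 0.71, 15.7 ± 1.24 and 14.01 ± 1.98% of its pair in non-defeated, resilient and susceptible mice, and Vamp1 13.1 ± 1.69, 12.8 ± 2.16 and 12.1 ± 1.70% (SD, n = 4, 4 and 3). None of the 6 differences in log2 ratio passed, with exact permutation p-values from 0.229 to 0.857. Cplx1 made up 99.1 ± 0.12, 99.2 ± 0.16 and 98.6 ± 0.46% of its pair. The log2 ratio of Cplx1 to Cplx2 was 6.05, 6.68 and 5.71 in susceptible 2, 4 and 10 against 6.66 to 7.33 in resilient mice, a difference of -0.77 with an exact permutation p of 0.0571 (adjusted p = 0.137), and -0.61 against non-defeated mice with the same p-values. Without susceptible 10 these differences were -0.56 and -0.39, and without the libraries with thalamic markers -0.54 and -0.31. The overlap came from susceptible 4.

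Of the 67 other release genes, 0 passed in resilient against non-defeated and 0 in susceptible against non-defeated mice. At an unadjusted p under 0.05 edgeR's test gave 1 and 5 of them, beside 4.38% and 13.3% of all genes, and DESeq2 called 0 in both. Those with the smallest unadjusted p were Stx2 and Syt13 (log2 fold change 0.48 and 0.23, both with an adjusted p of 1) and Ppfia2 and Vamp4 (-0.17 and -0.10, likewise) in the first comparison. In the second they were Vamp8 and Stx2 (0.79 and 0.70, adjusted p = 0.151 and 0.217) and Syn1 and Rims1 (-0.41 and -0.19, adjusted p = 0.268 and 0.374).

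In susceptible against resilient mice 0 of 67 passed in edgeR's quasi-likelihood test, with 12 at an unadjusted p under 0.05 (5 higher and 7 lower) beside 20.9% of all genes, and the median log2 fold change of the 67 was -0.03 beside 0.003 for all genes. Those with the smallest unadjusted p were Vamp4 and Ppfia2 (0.24 and 0.31, adjusted p = 0.13 for both) and Syn1 and Dnm1 (-0.51 and -0.40, adjusted p = 0.0781 and 0.129). Syn1 encodes synapsin I, a phosphoprotein that tethers vesicles in their cluster, and Dnm1 the dynamin that cuts new vesicles from the membrane. Syn1 was at 494, 495 and 601 CPM in susceptible 2, 4 and 10, at 583, 854, 830 and 754 CPM in resilient 3, 5, 7 and 8, and at 563 to 856 CPM in non-defeated mice. Susceptible 10 and resilient 3 overlapped, and the 2 lowest of the 11 libraries were susceptible 2 and 4. DESeq2 and the likelihood ratio test called Syn1 (adjusted p = 0.0303 and 0.0326), as did the main test without susceptible 10 (adjusted p = 0.0497).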

How the data were processed

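RNA of 11 TRAP samples and 3 input samples was sequenced after full-length cDNA synthesis, as single reads of 150 bp without strand. The authors trimmed reads with fastp, aligned them to mm10 with STAR (2.5.3a in the submitters' processing notes, which also list HTSeq, while the study's methods name a later STAR version) and deposited raw counts per gene, which were not normalized. Groups came from the labels. Sample numbers are not shared between groups, so nothing was paired. All 14 columns were used.

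Identifiers were named from GENCODE mouse release 21 (37607 of 39017). The model, in edgeR 4.0.16 under R 4.3.3, was 1 fit of all 14 libraries, with TMM, the default filter on low counts, the quasi-likelihood test (2-sided) and Benjamini-Hochberg adjustment over 21298 genes, with a call at an adjusted p under 0.05. The fit was tested on simulated data. Paralog ratios used counts per kb of exon with 0.5 added and exact 2-sided permutation tests over libraries (scipy 1.17.1), adjusted over 12 tests. With 4 against 3 or 4 libraries the smallest p is 0.0286. It cannot pass that adjustment unless more ratios reach it than the 3 of TRAP against input. All 3 of those did, at an adjusted permutation p of 0.114. No 2 libraries of a group agreed within counting error (chi-square per degree of freedom of at least 13.2). Each sample is 1 mouse.

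The members and the lists of other release genes and cell markers were chosen with earlier results of these data known. All members were named. Other release genes were named if they were among the 5 largest rises or falls in TRAP against input that passed, or if they passed between TRAP groups, and otherwise if they had the 2 smallest p-values per direction. Likeness named the 3 highest Pearson correlations. Some items that these rules select are not reported here. Of the 69 other genes, Vamp7 was not analysed here and Cplx4 was under the filter. Alternatives were RLE size factors, no filter, at least 10 counts in every library, the likelihood ratio test, the 2 groups or 11 TRAP libraries alone, DESeq2 1.42.0 on each pair of groups, sample number (1 to 6 against 7 to 11) as a covariate, leaving out each library, 5 counts added in ratios, and transcript length. Leaving out the 5 libraries with summed thalamic markers over 250 CPM was chosen after seeing the data. Promoter stretches are from RefSeq (GRCm38.p6); those of Syt7, Vamp2 and Snap25 were not used here.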

Additional observations from a re-analysis of the deposited data

Results flagged for a closer look

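Of 58 groups of 4 libraries examined for a library far from the others (members, named release genes and paralog ratios in non-defeated and resilient mice), 1 stood out: Bsn, the active zone scaffold, was at 139.7 CPM in non-defeated 9, and its distance to the nearest of the other 3 libraries was 0.844 of the group's whole range, above the limit of 0.829. By chance about 1 in 20 groups would stand out. Non-defeated 9 is also 1 of the 5 libraries with thalamic marker RNA, and the part of that RNA in the level of Bsn was not tested. No member of the release machinery and no paralog ratio stood out in this way.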

How the results depend on the processing

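The 7 rises and 2 falls of members in TRAP against input kept their direction in all 14 alternatives, with 8 to 9 calls without single libraries, and calls among the other release genes were between 40 and 46. Between resilient and non-defeated mice no alternative called a member or another release gene. In susceptible against non-defeated mice the likelihood ratio test called 1 member (Cplx2) and 1 other gene (Vamp8), and the other alternatives 0. In susceptible against resilient mice, where 1 member and 0 other genes passed, the count of members was 0 with the 2 groups compared only, in the 11 TRAP libraries and with sample number as a covariate. The likelihood ratio test and DESeq2 gave 1 other gene each (Syn1), as did leaving out the libraries with thalamic markers (Unc13c). Without single libraries the counts ran from 0 to 2 for members (2 without susceptible 10: Cplx2 and Syt7) and from 0 to 1 for other genes. The number of genes called in all went from 403 to 0 with the 2 groups compared only, 1 in the 11 TRAP libraries, 308 with RLE size factors, 126 with no filter, 1099 with the likelihood ratio test and 1004 with DESeq2. It was 26, 196, 12 and 6 without resilient 3, 5, 7 and 8, 7, 73 and 1058 without susceptible 2, 4 and 10, and 816 without the libraries with thalamic markers. The cause was not tested.

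No paired analysis was made, because the groups share no sample numbers. Whether an input and a non-defeated TRAP library came from the same mouse is not told by these numbers. The tests treat them as separate. Paralog log2 ratios kept their direction except where the difference was small. Without the libraries with thalamic markers Syt2/Syt1 in susceptible against non-defeated mice turned from -0.15 to 0.0274, and Vamp1/Vamp2 turned to 0.00545 in resilient against non-defeated, 0.11 in susceptible against non-defeated and 0.10 in susceptible against resilient mice. Without single libraries Vamp1/Vamp2 ran from -0.17 to 0.0285 in resilient against non-defeated and from -0.22 to 0.0346 in susceptible against resilient mice. Cplx1/Cplx2 ran from -0.88 to -0.39 in susceptible against non-defeated, from -1.04 to -0.56 in susceptible against resilient and from 0.03 to 0.25 in resilient against non-defeated mice. None of these differences passed in any setting, and the cause was not tested. Without a single library, the permutation test of susceptible against other mice could give no p below 0.0667. Without the libraries with thalamic markers, no comparison had enough libraries left for a p under 0.05. Not passing was therefore fixed in advance in these settings. Levels of the Syt2/Syt1 and Vamp1/Vamp2 ratios moved with the length used. Of 903 combinations of a named gene and an alternative, 885 stayed on their side of the threshold, 11 lost a call, 7 gained one and 34 differed in sign with no call in either. With 3 or 4 libraries a group, a difference that did not pass is not shown to be absent.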

Other observations

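The other complexin with enough counts, Cplx3, and 2 further release genes were highest in 3 of the 4 TRAP libraries set apart by thalamic markers, but not in susceptible 10. Cplx3 was at 50.6, 38.1 and 69.8 CPM in non-defeated 11, non-defeated 9 and resilient 7, and between 2.004 and 10.8 CPM in the other 8 TRAP libraries, among which susceptible 10 was at 3.23 CPM. The calcium sensor Syt9 was at 5.74, 9.44 and 16.9 CPM in the same 3 libraries and between 1.07 and 4.0 CPM in the others. Unc13c, a Munc13 paralog, was at 9.78, 11.7 and 16.1 CPM in those 3 and between 1.37 and 4.54 CPM in the others. These genes were picked after their values were seen. None passed in any comparison of the main analysis, and Unc13c passed in susceptible against resilient mice once the libraries with thalamic markers were left out (adjusted p = 0.041).

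Rab3b, the release gene with the largest rise in TRAP after Syt2, was lowest in resilient 7 (595 CPM), non-defeated 11 (723 CPM) and non-defeated 9 (746 CPM), and at 828 to 1089 CPM in the other 8 TRAP libraries. The same 3 libraries were the 3 highest of the 11 for Vamp1 (1302, 1109 and 1163 CPM). Susceptible 10, also set apart by thalamic markers, was instead the lowest of the 11 for Vamp1 (781 CPM). This pairing of genes was picked after their values were seen.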
